A study of Mus musculus with 12 samples.

Results

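The intervals described here were 256 stretches of mouse chromatin that were at least as open in fibroblasts as in control reprogramming cells, by normalised count, and more open in Zfp266 knockout (KO) than in control cells during reprogramming. They were chosen by measured values. At each, the mean normalised count of the KO reprogramming libraries (K) exceeded that of the control reprogramming libraries (C), and the mean over the fibroblast libraries (M) was at least C. The reprogramming table listed 1608 intervals out of 273256 merged peak intervals, of which 1522 were more open in KO (0.557% of all merged intervals). The 256 members were 16.8% of those 1522. Of the other 1266, M was 0.5 to 1 times C at 230 and under 0.5 times C at 1036.

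Open chromatin was profiled by Omni-ATAC-seq, in which the Tn5 transposase cuts accessible DNA, with 50000 cells per library. All 12 libraries came from strain 129 fibroblasts at passage P2, derived from E12.5 embryos (mouse embryonic fibroblasts, MEFs), with 3 libraries in each of 4 groups. The groups were MEFs of wild type genotype given a control sgRNA, Zfp266 KO MEFs given a Zfp266 sgRNA, and the same 2 genotypes after 72 h of OSKM induction. Doxycycline at 300 ng/ml with vitamin C at 10 µg/ml started reprogramming 24 h after transduction, and every library was harvested 96 h after transduction. All groups carried Cas9 and a doxycycline-inducible OSKM cassette in 1 ESC-derived line, so the MEF groups held the cassette without induction. Per the paper these fibroblasts came from chimeric embryos whose host cells were of another strain and lacked the cassette. The share of host cells in the MEF libraries is not given. KO cells were a transduced population and not a clone. Per the methods, reprogramming cells had been diluted with unmodified fibroblasts and sorted for the reporter of the cassette, whereas MEFs had been neither diluted nor sorted on it, so the induction and these steps cannot be told apart where MEFs and reprogramming cells are set side by side.

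ZFP266 belongs to the KRAB zinc finger proteins, which bind chosen DNA sequences, often within transposable elements, and recruit machinery that closes chromatin. B1 elements are short interspersed repeats found throughout the mouse genome. AP-1, a dimer of FOS and JUN family proteins, occupies many of the enhancers that are open in fibroblasts, and such enhancers usually close when OCT4, SOX2, KLF4 and MYC (OSKM) take cells towards pluripotency.

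Most members held an AP-1 binding string, a B1 copy or both, and 6 of the intervals named here are shown because their letters carry these features. Sequences are the plus strand of GRCm38, read 5′ to 3′, with the AP-1 string (TGACTCA or its reverse complement TGAGTCA) in capitals. The windows without a B1 copy came from an intron of Asap1 (chr15:64271226-64271344), from 17725 bp downstream of the start of Fosl2, the gene of an AP-1 subunit (chr5:32164326-32164444), and from an intron of Ccdc58 (chr16:36079652-36079770).
Interval_94722: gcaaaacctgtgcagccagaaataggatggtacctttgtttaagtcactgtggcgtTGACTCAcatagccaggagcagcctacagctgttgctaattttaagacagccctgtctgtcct
Interval_194028: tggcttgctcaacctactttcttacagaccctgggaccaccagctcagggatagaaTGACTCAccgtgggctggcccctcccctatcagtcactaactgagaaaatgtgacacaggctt
Interval_104439: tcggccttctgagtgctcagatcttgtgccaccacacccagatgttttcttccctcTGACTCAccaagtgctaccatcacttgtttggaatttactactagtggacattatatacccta

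The windows with both features came from an intron of Loxl1, which encodes an enzyme that crosslinks elastin (chr9:58301167-58301369), from near C77080 (chr4:129267343-129267486) and from 103202 bp downstream of the start of Kitl, the gene of the KIT ligand (chr10:100190845-100191102). The B1 copy spanned window positions 6 to 152, 6 to 139 and 6 to 120, in this order and counted from 1. All 3 copies lay on the minus strand, so they read as the reverse complement of the B1 sequence that served as the query. That query, the majority sequence of 493 copies on chromosome 19, is given last, with the 9 letters by which the copies were found in capitals. In the C77080 window the AP-1 string began at position 130 and so lay inside the B1 copy, which was the case for 6 of the 249 AP-1 strings in the members. This was 2.41%, against 3.85% with M 0.5 to 1 times C, 3.43% with M under 0.5 times C and 0.280% over all merged intervals.
Interval_256682: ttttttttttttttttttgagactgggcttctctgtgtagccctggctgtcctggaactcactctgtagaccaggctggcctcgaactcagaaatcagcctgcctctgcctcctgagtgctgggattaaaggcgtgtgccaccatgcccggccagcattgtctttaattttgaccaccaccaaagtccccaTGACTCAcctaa
Interval_187172: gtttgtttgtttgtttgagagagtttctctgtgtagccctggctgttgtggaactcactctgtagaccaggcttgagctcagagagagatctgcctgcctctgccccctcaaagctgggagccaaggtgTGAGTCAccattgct
Interval_31274: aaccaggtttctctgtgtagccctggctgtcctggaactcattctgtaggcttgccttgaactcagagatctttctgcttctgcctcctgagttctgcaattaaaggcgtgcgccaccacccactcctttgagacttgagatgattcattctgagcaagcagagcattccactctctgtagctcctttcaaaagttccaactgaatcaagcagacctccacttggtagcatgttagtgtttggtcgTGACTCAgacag
B1 query: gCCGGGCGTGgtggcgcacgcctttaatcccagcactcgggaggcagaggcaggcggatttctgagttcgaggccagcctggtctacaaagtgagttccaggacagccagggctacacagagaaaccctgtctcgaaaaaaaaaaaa

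The members covered a wide range of openness, with M from 3.15 to 1914. The median normalised count (reads divided by the library size factor) over members was 141.8 for M, 69.0 for C and 135.6 for K. The per-library medians were 68.2, 65.8 and 72.4 in the control reprogramming libraries and 131.3, 134.1 and 138.9 in the KO reprogramming libraries, or 68.8 ± 3.38 (SD, n = 3) and 134.8 ± 3.86 (SD, n = 3). K over C had a median of 1.82 and ran from 1.20 to 8.71. On the log2 scale the median difference was 0.87 at the members and 1.08 at the 1266 other more open intervals. These differences chose the members and are given as a description. In bulk libraries, more cells with an open site and more opening per cell cannot be told apart.

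The fibroblast level M lay above the highest control reprogramming library at 228 of the 256 members and within the range of those libraries at 28. The members nearest to the boundary had M and C of 73.0 and 72.9 (Interval_138837), 1118 and 1114 (Interval_187639) and 14.4 and 14.3 (Interval_219675). Just outside it were Interval_14301 with 297.6 and 298.6, Interval_266911 with 4.31 and 4.36, and Interval_244880 with 147.01 and 149.05. The boundary therefore passed through intervals whose M and C were almost equal.

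**Figure D1:**
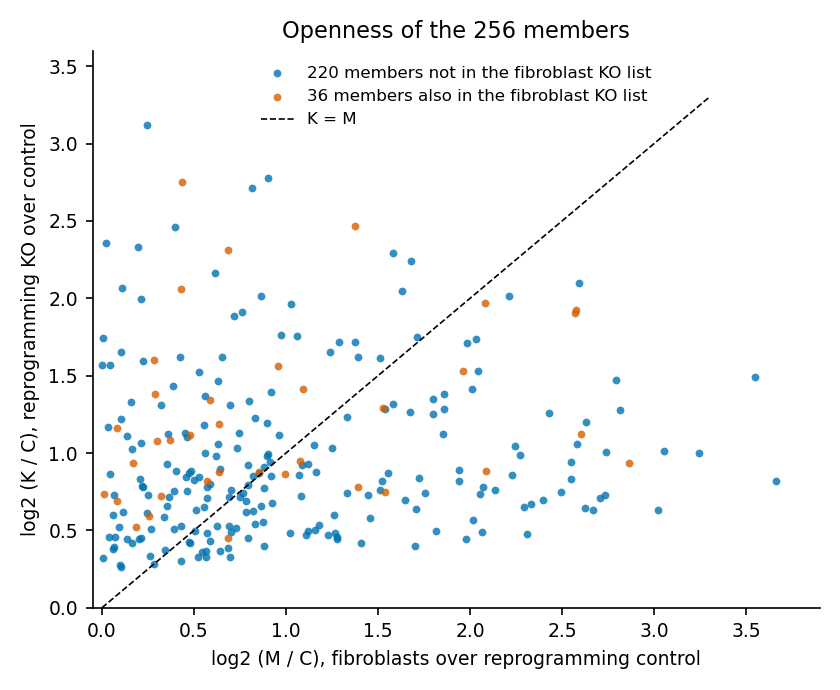
Each point is 1 of the 256 members, plotted by log2 of M over C on the x axis and log2 of K over C on the y axis. Orange points are the 36 members also in the fibroblast KO list, blue points the other 220, and the dashed line marks K = M. Points lie on both sides of the line, 123 below it and 133 on or above it, and those at the right lie below it.

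Where the KO level stood relative to the fibroblast level differed widely among members. K was below M at 123 members and at or above M at 133. All 3 KO libraries were below M at 111 members, all 3 were above it at 121, and M fell within their range at 24. Among the 162 members with M at least 1.5 times C, the share of the difference between C and M that K covered had a median of 64.9%, and ran from 6.54% to 727%. It was under 25% at 32 of them, between 25% and 100% at 81, and 100% or more at 49.

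The higher the fibroblast level stood over the control level, the smaller the share that KO cells covered, a relation to which M contributes on both sides. At the 94 members with M 1 to 1.5 times C, the median M, C and K were 113.3, 83.8 and 169.7, and K was at or above M at 84. At the 101 members with M 1.5 to 3 times C, they were 139.9, 74.99 and 136.3, with a median share of 88.9%. At the 61 members with M at least 3 times C, they were 212.3, 45.6 and 97.4, with a median share of 24.4%, and K was below M at 58. The median of K over C was 1.72, 1.84 and 1.99 in these 3 classes.

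**Figure D2:**
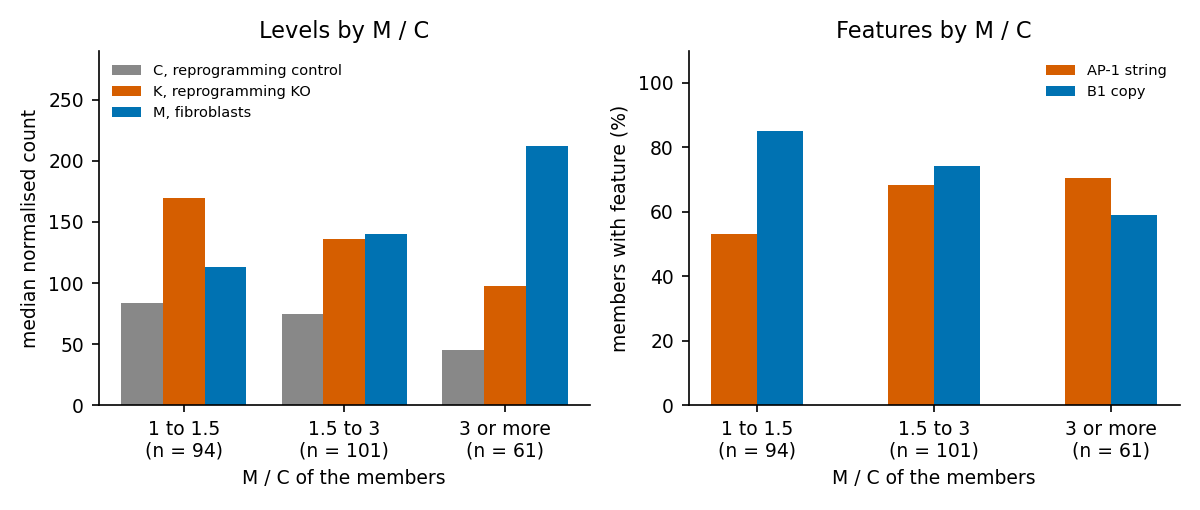
Members are grouped by M over C on both x axes (n = 94, 101 and 61). The left bars give the median normalised count for C (grey), K (orange) and M (blue), and the right bars the percentage of members with an AP-1 string (orange) or a B1 copy (blue). Median K lies above median M in the first class and under it in the third, where AP-1 strings are in 70.5% and B1 copies in 59.0% of members.

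At the members with the highest M over C, the KO cells covered a small part of the difference. The member with the highest M over C, 12.7, lay in an intron of Asap1 (Interval_94722), an Arf GTPase-activating protein gene. Its M was 406.5, its control reprogramming libraries had 27.9, 40.8 and 27.4, and its KO reprogramming libraries 64.0, 62.7 and 42.9. All KO libraries were above all control libraries, and K covered 6.54% of the difference. An interval in an intron of Adgrf5, an adhesion G protein-coupled receptor gene (Interval_115202), had M of 684.4, control values of 73.7, 78.9 and 64.0, and KO values of 138.1, 164.8 and 130.2. There K covered 11.8%. An interval 2002 bp upstream of Macrod1 (Interval_131221) had M of 655.4, control values of 110.6, 108.0 and 77.0, and KO values of 165.6, 182.1 and 141.3, a share of 11.6%. Of the 10 members with the highest M over C and M of at least 50, none reached 30% of the difference.

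At the other end stood members whose KO level rose well past the fibroblast level. An interval in an intron of Rhobtb3 (Interval_71510) had M of 17.3, control values of 6.70, 14.5 and 6.53, and KO values of 60.4, 66.4 and 63.5. K over C was 6.86. The interval downstream of Kitl (Interval_31274) had control values of 34.6, 27.2 and 31.3 and KO values of 197.6, 196.8 and 233.4, with M of only 42.0. An interval 71355 bp upstream of Rybp, a Polycomb subunit gene (Interval_217448), had M of 130.6, control values of 43.6, 40.8 and 37.9, and KO values of 191.2, 174.7 and 211.2. At these 3 members K lay above M in all 3 KO libraries.

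The knockout effect in MEFs themselves was the measure that the rule had not used directly. The MEF table listed 479 intervals as more open in KO, 0.175% of all merged intervals. Of the members, 36 of 256 (14.1%) were among them, against 34 of the 1266 other more open intervals (2.69%), or 5.65% with M 0.5 to 1 times C and 2.03% with M under 0.5 times C. However, M averages control and KO MEFs, so an interval that opens in KO MEFs is more likely to pass M at least C. At 22 of the 36 the mean of the control MEFs alone was below C. With the control MEF mean in place of M at intervals listed in both tables, 14 of 234 members (5.98%) and 56 of 1288 others (4.35%) were in the MEF list.

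All 36 were more open in KO MEFs, and at all 36 the 3 KO MEF libraries lay above the 3 control MEF libraries. The edgeR quasi-likelihood test on their reads called all 36, with Benjamini-Hochberg adjusted p-values over all merged intervals from 2.88e-59 to 0.00332. The MEF table held only intervals selected on these same libraries, so these calls are not independent of it. With TMM factors computed over that list, which is almost all more open in KO, 9 of the 36 were called more open and 6 less open, and without scaling 18 were called more open. The median over the 36 of the log2 KO effect was 1.08 in MEFs and 1.10 in reprogramming, each as the ratio of group means. Both effects were used in selecting the 36, so these medians are a description and no comparison of the settings. Median normalised counts over the 36 were 59.4 ± 5.08 in control MEFs, 138.0 ± 3.76 in KO MEFs, 47.6 ± 1.77 in control reprogramming cells and 115.5 ± 2.51 in KO reprogramming cells (SD of the library medians, n = 3 each). The control MEF libraries were all above the control reprogramming libraries at 12 of the 36, all below them at 12, and overlapped with them at 12.

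**Figure D3:**
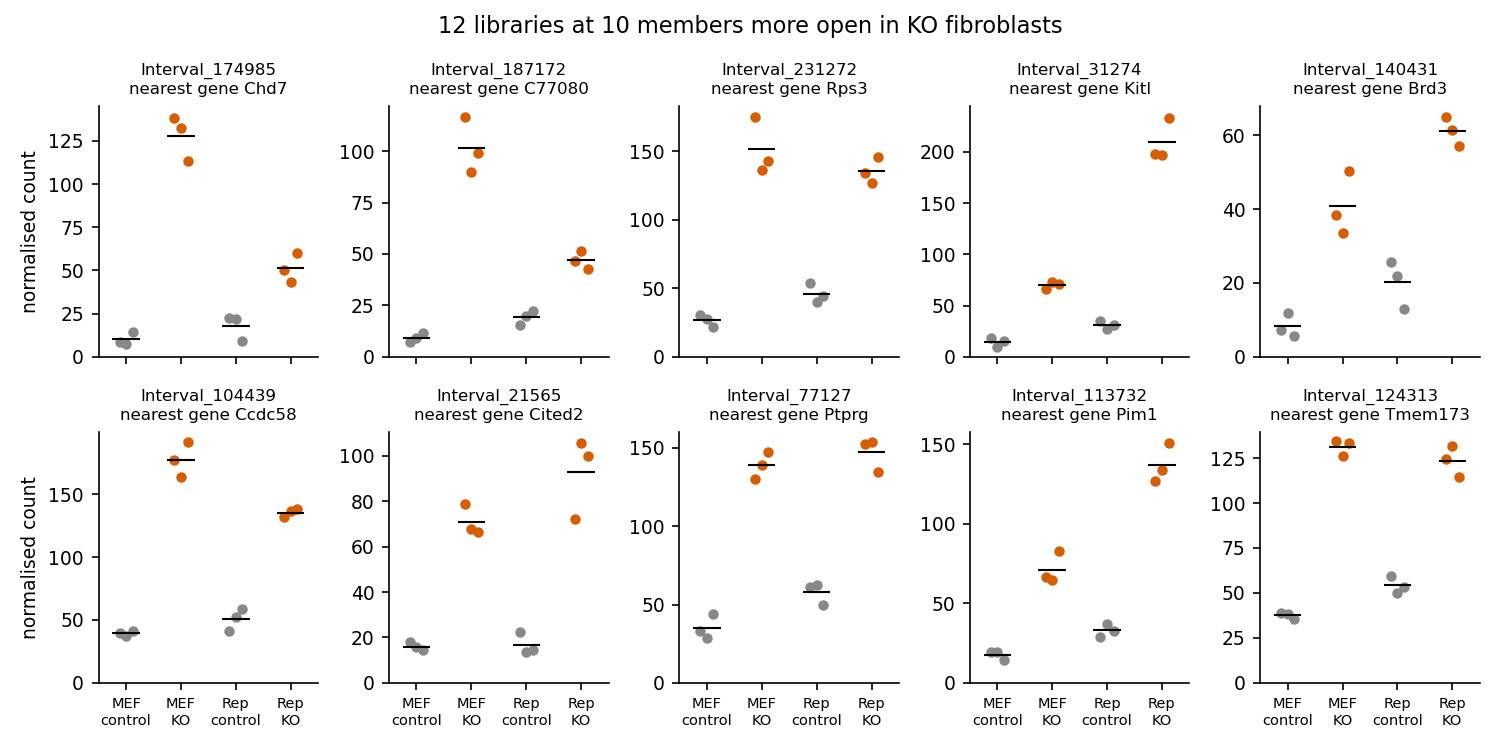
Normalised counts (y axis) in the 12 libraries, by group (x axis), at the 10 members with the largest KO effect in MEFs. Each point is 1 library, each line the mean of 3, with controls in grey and KO in orange. KO points lie above control points in MEFs and in reprogramming cells in each panel, and control MEF means lie below control reprogramming means.

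The 10 members with the largest effects in MEFs all had a control MEF mean below C, so they met the rule only through the KO MEFs. Interval_174985, an intergenic interval 62130 bp from the start of Chd7, a chromatin remodeller gene, had 8.63, 7.33 and 14.3 in control MEFs and 138.5, 132.3 and 113.1 in KO MEFs (edgeR log2 fold change 3.68). In reprogramming it had 22.3, 21.8 and 9.14 in control and 50.3, 43.1 and 60.3 in KO cells. Interval_187172 near C77080 had 7.19, 9.16 and 11.5 in control MEFs and 116.4, 89.8 and 98.9 in KO MEFs (edgeR log2 fold change 3.47). Its reprogramming values were 15.6, 19.96 and 22.2 in control and 46.7, 51.7 and 42.9 in KO cells. At both, the KO level was lower in reprogramming than in MEFs, and the control groups were low in both settings.

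The interval in an intron of Ccdc58 (Interval_104439) had control MEF values of 39.5, 37.6 and 41.1 and KO MEF values of 177.8, 163.9 and 191.8. In reprogramming its controls had 41.3, 52.6 and 58.7 and its KO cells 131.7, 136.6 and 138.1. Interval_31274 near Kitl showed the reverse order, with KO MEF values of 66.4, 72.7 and 70.7, all below its KO reprogramming values. Over the 36, K was below the KO MEF mean at 19 and at or above it at 17.

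The 12 members with all control MEF libraries on top included intervals whose openness fell by reprogramming in both genotypes. Interval_257938, 19666 bp upstream of Ankdd1a, had 116.5, 128.3 and 115.7 in control MEFs and 254.9, 246.2 and 256.5 in KO MEFs, then 27.9, 22.7 and 26.1 in control and 47.6, 45.5 and 54.0 in KO reprogramming cells. Interval_113933, in an intron of Btbd9, was chosen after its values were seen. It had 321.4, 348.2 and 327.0 in control MEFs, 430.3, 447.1 and 468.5 in KO MEFs, 80.4, 64.4 and 52.2 in control reprogramming cells and 227.8, 232.5 and 277.8 in KO reprogramming cells. K was below the control MEF mean at 8 of the 36.

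For the 220 members outside the MEF list the 2 MEF groups were seen only as peaks called on merged replicates, without replicate error. Of these, 199 had a peak in both MEF groups. The log2 ratio of KO to control peak fold enrichment (MACS2, over background) had a median of -0.04 there, with 74 of 199 (37.2%) higher in KO. Over all merged intervals the median was -0.03 with 40.5% higher in KO. At the 25 MEF-listed members with both peaks it was 0.25, with 20 higher in KO.

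Peak calls were set beside the label of a fibroblast-open interval. They came from the same libraries as M, C and K, so their shares follow in part from the rule and are a description. A control MEF peak was present at 226 members (88.3%), against 56.1% of those with M 0.5 to 1 times C and 8.49% of those with M under 0.5 times C. Peaks were present at 245 members (95.7%) in KO MEFs, at 160 (62.5%) in control and at 246 (96.1%) in KO reprogramming cells. Over all merged intervals the shares were 59.7% in control MEFs, 58.6% in KO MEFs, 61.2% in control and 58.9% in KO reprogramming cells, so members were near this background in control reprogramming cells. The most frequent patterns were a peak in all 4 groups (158 members), and a peak in all but the control reprogramming cells (59 members). A further 17 had peaks in the KO groups only. At 8 members the KO reprogramming cells alone had a peak, with M from 3.15 to 17.3, and the Rhobtb3 interval was one of them. At 1 more, Interval_39282 with M of 106.8, both reprogramming groups and neither MEF group had a peak. The label was not met by a fibroblast peak at these members.

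AP-1 strings were more frequent in members than in the other more open intervals, whereas the share with a B1 copy was nearly equal over whole intervals. TGACTCA was present, on either strand, in 162 members (63.3%), in 40.9% of intervals with M 0.5 to 1 times C, in 25.97% of those with M under 0.5 times C and in 31.1% of all merged intervals. Members were also longer, with a median of 1527 bp against 1211, 838 and 732 bp. Per kb, the string occurred 0.57 times in members, 0.41 and 0.30 times in the other classes and 0.41 times in all merged intervals. The same letters in reversed order (ACTCAGT) occurred 0.19, 0.20, 0.18 and 0.19 times per kb. Within the central 400 bp, AP-1 strings were in 24.2%, 16.5%, 13.3% and 18.003%. No test was run on these shares.

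A B1 copy (at least 60 aligned bases) was found in 191 members (74.6%), in 74.8% and 74.3% of the other classes and in 7.49% of all merged intervals. Per kb, members held fewer copies, 0.60 against 0.80 and 0.90 in the other classes, with 0.094 in all merged intervals. Within the central 400 bp, B1 copies were in 31.3% of members, against 40.4% and 46.5% of the other classes and 3.53% of all merged intervals. Both features were present in 117 members (45.7%), only an AP-1 string in 45, only a B1 copy in 74 and neither in 20. Corresponding shares with both were 30.9% and 19.98% in the other classes and 2.81% of all merged intervals. In members the centre of the nearest B1 copy lay a median of 319.5 bp from the midpoint of the interval, against 239.5 and 190.3 bp in the other classes. It was 278 bp in all merged intervals. From members to the other classes, interval length fell in the same order, and the distances were not scaled to length. AP-1 strings in members with a B1 copy lay a median of 422 bp from the nearest copy, with 61 of 181 within 200 bp. The medians were 332 and 220 bp in the other classes, with 40 of 101 and 113 of 251 strings within 200 bp. Over all merged intervals the median was 371 bp, with 3223 of 10314 within 200 bp, so members were near this background.

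**Figure D4:**
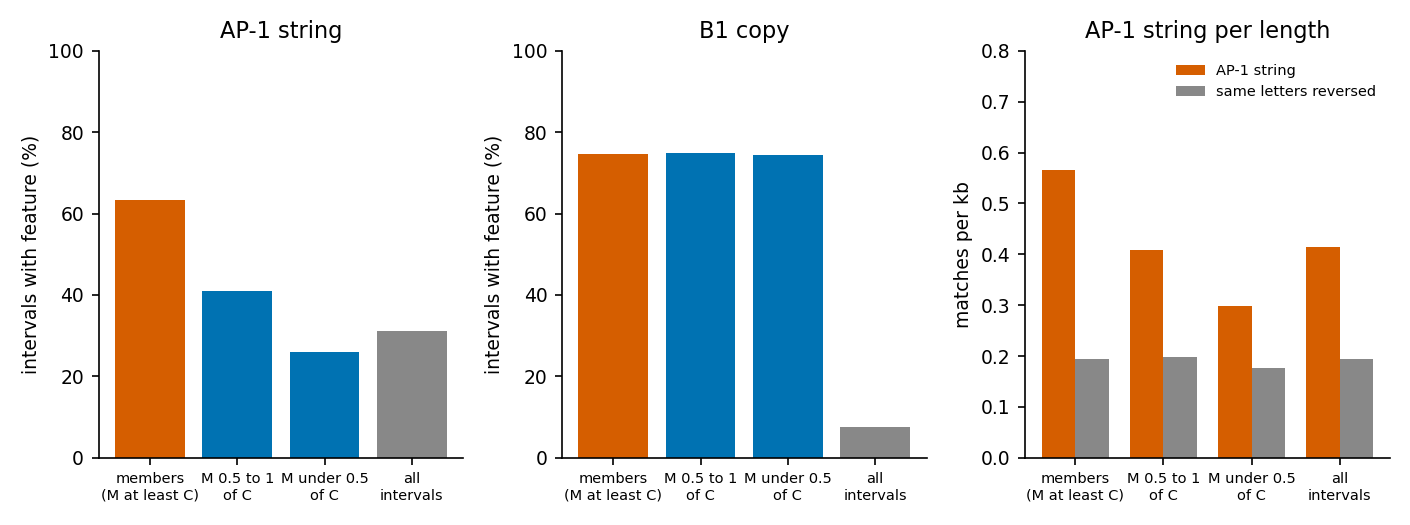
The first and second panels give the percentage of intervals with an AP-1 string or a B1 copy, and the third gives matches per kb of the AP-1 string (orange) and of the same letters reversed (grey). Intervals are the members, the other more open intervals by M over C, and all merged intervals. The AP-1 share falls from 63.3% to 25.97% over the 3 classes whereas the B1 share stays between 74.3% and 74.8%.

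The features also moved with the level within the set, and in opposite directions. From the lowest to the highest class of M over C, AP-1 strings were in 53.2%, 68.3% and 70.5% of members and B1 copies in 85.1%, 74.3% and 59.0%. The median length fell from 1723 to 1571 and 1293 bp. Members with only an AP-1 string had a median M over C of 2.87, those with both 1.72, those with only a B1 copy 1.504 and the 20 with neither 1.78. The corresponding medians of K over C were 1.76, 1.74, 1.97 and 1.98.

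Among other strings, KLF-like strings (GGGCGTG or GGGTGTG) were in 66.0% of members, 69.6% and 65.8% of the other classes and 28.8% of all merged intervals, and GGGCGTG is part of the B1 query. RUNX-like TGTGGTT was in 43.0% of members, 33.5% and 28.7% of the others and 23.3% of all merged intervals, yet per kb it occurred 0.33, 0.33, 0.35 and 0.30 times. SOX-like ACAATGG or ACAAAGG occurred 0.39 times per kb in members and 0.44 in all merged intervals. TEAD-like ACATTCC occurred 0.15 and 0.19 times per kb. Of the strings searched, AP-1 and the rare ETS-like ACCGGAA (0.032 against 0.013 and 0.024 per kb) were the ones more frequent per kb in members than in both other classes, and of the 2 the ETS-like string was no more frequent than in all merged intervals (0.034 per kb). The OCT-like ATGCAAAT and the cyclic AMP response element TGACGTCA were at 0.045 and 0.00682 per kb in members.

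By the midpoint, 151 members (59.0%) were intronic, 73 (28.5%) intergenic, 26 (10.2%) within 1000 bp of a start site and 6 (2.34%) exonic, 3 of these in a UTR. For all merged intervals the shares were 44.9%, 40.2%, 11.2% and 3.74%. With M 0.5 to 1 times C and under 0.5 times C, 53.9% and 54.7% were intronic and 34.3% and 34.6% intergenic. In these classes 8.70% and 7.82% lay within 1000 bp of a start site, and 3.04% and 2.90% were exonic. The members lay on 20 chromosomes, 6 to 22 on each, and 7 neighbouring pairs lay within 50000 bp. None of the 36 members in the MEF list was within 1000 bp of a start site.

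Members were set against gene lists for the fibroblast and pluripotent programmes. Of 8 gene lists with 188 genes, 3 members fell at extracellular matrix genes (36 genes), 3 at contractile and adhesion genes (29 genes), 1 at AP-1 family genes (14 genes) and 2 at pluripotency genes (25 genes). None fell at fibroblast transcription factors (35 genes), the TGF-beta pathway (23 genes), epithelial genes (17 genes) or senescence and p53 genes (9 genes). As a share of members, extracellular matrix genes had 1.17%, against 0.079% of other more open and 0.405% of all merged intervals. Contractile and adhesion genes had 1.17%, against 0.237% and 0.418%. Pluripotency genes had 0.781%, against 0.632% and 0.245%, and fibroblast transcription factors 0 members, against 7 other more open intervals (0.553%) and 0.519% of all merged intervals. Over all merged intervals the AP-1 family had 0.105%, the TGF-beta pathway 0.339%, epithelial genes 0.081% and senescence and p53 genes 0.064%. At such shares 256 members would hold about 1 interval or none per list, so the counts of 0 cannot be read as a lack. The counts of 1, 2 and 3 rest on as few intervals and cannot be read as an excess.

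At Fn1, which encodes fibronectin, the intronic Interval_6335 had M of 55.98, control reprogramming values of 22.3, 19.96 and 28.7, and KO values of 69.5, 71.4 and 82.6. At Loxl1, Interval_256682 had M of 516.5, control values of 99.4, 108.9 and 99.2, and KO values of 177.5, 175.9 and 136.5. Fn1 thus exceeded M in KO cells, whereas Loxl1 covered 14.7% of the difference.

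Integrin and cytoskeletal genes were closer to the fibroblast level. The interval 14327 bp upstream of Itgav, the alpha V integrin gene (Interval_146957), had M of 260.5, control values of 128.5, 108.9 and 130.5, and KO values of 203.1, 249.7 and 246.1. Interval_250752 upstream of Itgb1, the beta 1 integrin gene, had M of 294.8, control values of 162.0, 147.9 and 171.0, and KO values of 258.0, 270.6 and 293.7. K covered 80.0% of the difference at Itgav and 84.6% at Itgb1. In an intron of Pdlim5, a PDZ and LIM domain protein gene of the actin cytoskeleton (Interval_172375), the share was 36.7%, with M of 451.6, C of 188.3 and K of 285.0.

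The AP-1 subunit gene Fosl2 (Interval_194028) had M of 125.4, control values of 36.9, 37.2 and 33.9, and KO values of 94.2, 91.0 and 90.5. K covered 62.6% of the difference, with little spread between libraries. In the pluripotency list, an intronic interval of Tet1, a DNA demethylation enzyme (Interval_26377), had M of 521.7, C of 81.9 ± 2.77 and K of 127.0 ± 9.70 (SD, n = 3), a share of 10.2%. The interval 44 bp upstream of a start of Dnmt3l, a cofactor of de novo DNA methylation (Interval_28160), had M of 182.1, C of 72.4 ± 15.1 and K of 121.0 ± 2.47 (SD, n = 3). At both of these genes the fibroblast level was the highest of the 3.

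The wider pool of fibroblast peaks was examined through the merged peak lists. Of 150023 intervals with a peak in both MEF groups, 78402 had none in control reprogramming cells, and 3173 of these (4.05%) had one in KO reprogramming cells. In the reverse comparison, 4037 of 79266 intervals without a KO peak (5.09%) had a control peak. With a B1 copy, the shares were 396 of 2726 (14.5%) and 195 of 2525 (7.72%), and without one 3.67% and 5.01%. Intervals with an AP-1 string and no B1 copy had 3.94% and 5.02%, and those with both 14.3% and 7.30%. The larger share in KO was thus seen with a B1 copy, with or without an AP-1 string. Each group had 1 merged peak list, so these shares have no replicate error, and 59 members are among the 3173 intervals.

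**Figure D5:**
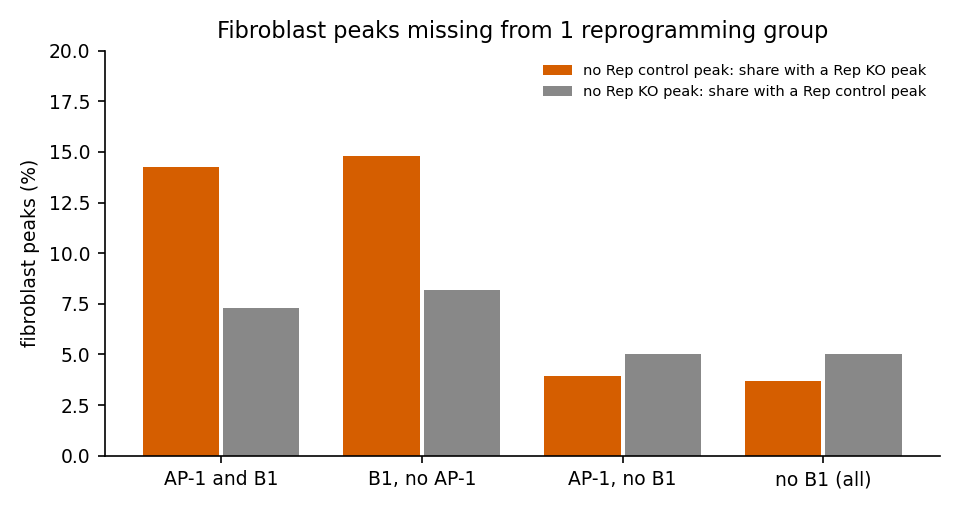
Percentage (y axis) of fibroblast peaks, present in both MEF groups, that were missing from control reprogramming cells but present in KO cells (orange), and missing from KO but present in control cells (grey), by sequence feature (x axis). Orange bars are the taller with a B1 copy and grey bars the taller without one.

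Cell identity was checked from peaks at start sites of marker genes. All 8 fibroblast markers had a peak in all 4 groups. From control MEFs to control reprogramming cells the fold enrichment was lower at 6 of them, by most at Thy1 (3.83 and 1.60), and higher at Col1a2 (3.03 and 3.31) and Prrx1 (2.05 and 2.24). The pluripotency markers did not move together. Zfp42 had no peak in MEFs and 8.75 in control reprogramming cells, whereas Pou5f1 had 2.23 in control MEFs and no reprogramming peak. Esrrb had 4.36 and 2.74 and Sox2 3.82 and 3.91, and Nanog and Dppa5a had no peak in any group. Of the epithelial markers, Cdh1 (4.65 and 2.78) and Epcam (3.94 and 3.33) were higher in MEFs, Krt18 (2.01 and 3.04) was higher in reprogramming cells, and Krt8 had a peak only there (2.55). Peaks at start sites thus followed the labelled cell types at some markers and went against them at others. Reads counted in the members ran from 23197 to 52315 per reprogramming library.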

How the data were processed

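Omni-ATAC-seq libraries (12, with 3 in each of 4 groups) were grouped by their titles. The authors used BWA to place reads on GRCm38, discarded duplicate, mitochondrial and blacklisted ones, called broad peaks with MACS2 on merged replicates and counted reads over the union of peaks. The deposited tables hold raw counts per interval and library, and a normalised signal (the counts divided by a size factor) with its mean over all 12 libraries. They list only intervals that passed the authors' DESeq2 test, and their columns of log2 fold change, its standard error, statistic, p-value and adjusted p-value were not used. The deposited peak lists hold the fold enrichment of every peak (a ratio) and its −log10 q-value.

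The 4 peak lists were merged (bedtools 2.31.1) into 273256 intervals, which held all intervals listed in both tables. M was 12 times the mean over all libraries minus the 6 reprogramming values, divided by 6, and equalled the mean of the 6 MEF libraries at the 70 intervals in both tables. Size factors, as counts over signal, ran from 0.630 to 1.46. Reads in the listed intervals ran from 33936 to 86490 per MEF library and from 141616 to 324141 per reprogramming library, which limits precision and is not the sequencing depth. MEF counts were tested with edgeR 4.0.16 (two-sided quasi-likelihood test, recovered size factors, adjusted p under 0.05 over all merged intervals, tested on simulated data). As nothing states that replicates came from separate cultures, p-values may measure technical spread only, and the spread was estimated on selected intervals. Strings were searched on both strands of GRCm38.p6, B1 copies with blastn 2.17.0 (E-value under 1e-05), and genes were taken from GENCODE M21. A peak was shared at 1 base of overlap.

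Members and gene lists were chosen with earlier results of these data known. Intervals were named as the 10 with the highest M over C (M at least 50), the 10 with the highest K over C (K at least 50), the 10 of the MEF list with the largest KO effect, up to 20 at listed genes, and 3 on each side of the boundary. Printed windows hold the AP-1 string nearest the midpoint, or the AP-1 string and B1 copy closest to each other. Coordinates are counted from 1. Values are printed for some of these intervals, and sequences for 6 of them.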

Additional observations from a re-analysis of the deposited data

How the results depend on the processing

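The number of members was 162, 102 and 123 with M at least 1.5 times C, at least 2 times C, and at or above K. It ranged from 254 to 262 without any 1 reprogramming library. With the control MEF mean in place of M where both tables listed the interval, an alternative chosen after seeing the data, it was 234. The median log2 K over C of 0.87 was 0.75 with a pseudocount of 10, 0.93 at members with M at least 2 times C, and 0.83 to 0.89 with 1 library left out. The median share of the difference was 35.2% at M at least 2 times C, and 59.5% to 65.1% with 1 library left out. K was below M at 118 to 127 members without any 1 KO library. M could not be recomputed without single MEF libraries at intervals outside the MEF table.

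Of the 36 members called in MEFs, 9 were called more open and 6 less open with TMM factors, which centre a list that is almost all more open, 18 were called without scaling, and 34 to 36 with 1 MEF library left out. With the replicate block 36 were called. Same-numbered MEF libraries deviated together with correlations of 0.214, 0.138 and 0.0428, and reprogramming libraries with 0.0368, 0.101 and 0.0812, so the numbers were not taken as pairs.

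A control MEF peak was at 62.1% of members when it had to cover 50% of the interval, at 81.6% with −log10 q of at least 5, and at 93.1% of members with M at least 2 times C. The AP-1 share was 24.2% in the central 400 bp, 54.7% without soft-masked repeats and 70.6% with M at least 2 times C. The B1 share was 64.8% with at least 100 aligned bases, 31.3% in the central 400 bp and 64.7% with M at least 2 times C. Start sites within 2500 bp gave 21.9%. The order of the 3 classes of more open intervals in AP-1 share was the same over the central 400 bp (24.2%, 16.5% and 13.3%) and without repeats (54.7%, 33.0% and 18.9%), whereas B1 copies within the central 400 bp were at 31.3% of members against 40.4% and 46.5% of the other classes.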

Other observations

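The density of AP-1 strings and B1 copies by position within the interval was compared between the members and the other more open intervals, with no test. Within 100 bp of the midpoint the AP-1 string occurred 0.72 times per kb in members, 0.52 with M 0.5 to 1 times C, 0.41 with M under 0.5 times C and 0.62 in all merged intervals. Between 300 and 400 bp from the midpoint the values were 0.67, 0.38, 0.14 and 0.33. The groups differed most there, and the value of 0.14 rested on 17 strings. Between 200 and 300 bp the values were 0.53, 0.44, 0.27 and 0.34, and between 400 and 500 bp 0.39, 0.27, 0.28 and 0.34. B1 copies covered 10.2% of the bases within 100 bp of the midpoint in members, against 13.3% and 11.3% in the other classes and 0.864% in all merged intervals.

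Of the members in the MEF list, 29 of 36 (80.6%) held an AP-1 string and 26 (72.2%) a B1 copy. All 479 intervals more open in KO MEFs had 63.05% and 52.8%, and the 220 members outside the list 60.5% and 75.0%. Intervals were shorter in the MEF list, with a median of 1080 bp against 1634.5 bp for the other members, and the AP-1 string occurred 1.01 against 0.52 times per kb.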
